A study of Mus musculus with 2 samples.

Results

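The immunoglobulin heavy chain variable (Ighv) segments were taken as the genes of the GENCODE vM21 annotation on mouse chromosome 12 whose symbol starts with Ighv and whose class is IG_V_gene. This gave 113 segments of 55450 annotated genes. The summits of 4 CTCF peaks lay within 1 kb of a segment, and 9 lay between the first and the last segment or in the 100 kb on either side, of 62686 peaks in the authors' optimal set. CTCF, a zinc finger protein that binds DNA, was mapped by chromatin immunoprecipitation and sequencing (ChIP-seq) in hindbrain of B6NCrl mice at postnatal day 0. The labels put both libraries in 1 untreated group made from hindbrains pooled over several dissections, with sex not collected. The labels name the same pooled tissue sample for each library, and differences between the libraries may therefore be technical. The files are peak lists that hold no read counts, which leaves sequencing depth unknown, and the tissue label could not be checked against marker genes. No condition was compared, and no test was run. Shares are given with Wilson 95% intervals and densities with exact Poisson 95% intervals, which cover counting error only. Beside a count of 0, the share that 3 counts of the total would make is given as the limit that 0 allows.

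Each V segment encodes most of an antibody heavy chain's variable domain. In developing B cells, the RAG recombinase first joins a D to a J segment and then a V segment to the DJ join, cutting at recombination signal sequences made of a heptamer, a spacer and a nonamer. CTCF and cohesin hold chromatin loops, often between CTCF motifs that face each other, and in B cell progenitors the locus contracts so that distant V segments come near the D and J segments. Neural cells do not rearrange this locus. The segments are grouped in families by sequence similarity. Ighv5 and Ighv2 lie nearest to the D segments, and Ighv1, also known as J558, is the largest family and mostly distal.

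All 113 segments lie on the minus strand, so the D, J and constant genes are at lower coordinates and past the 3′ end of each V segment. The segments span 2.422 Mb of mm10 (GRCm38), beginning with Ighv5-2 at chr12:113578504-113578990 and ending with Ighv1-85 at chr12:116000028-116000461. The 90 bases that follow the 3′ end of a segment are shown for the 4 segments with a peak in the optimal set, because these hold both the recombination signal and the CTCF site. They were read from the RefSeq GRCm38 genome, 5′ to 3′ on the minus strand. Capitals mark, in order, the heptamer, the nonamer and the match to the CTCF core motif. The heptamer searched for was CACAGTG with up to 2 mismatches, and the nonamer was ACAAAAACC with up to 3 mismatches after a spacer of 22 to 24 bases. The CTCF core motif was searched on both strands as a pattern of 14 bases with up to 2 mismatches.
Ighv5-2 (chr12:113578414-113578503): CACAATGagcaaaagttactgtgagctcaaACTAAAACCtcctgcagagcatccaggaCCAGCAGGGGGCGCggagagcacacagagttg
Ighv2-3 (chr12:113611097-113611186): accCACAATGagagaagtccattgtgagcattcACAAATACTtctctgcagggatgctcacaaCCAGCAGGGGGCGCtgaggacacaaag
Ighv11-1 (chr12:113981789-113981878): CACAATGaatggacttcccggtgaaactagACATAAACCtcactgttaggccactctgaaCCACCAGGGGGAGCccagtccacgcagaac
Ighv11-2 (chr12:114048151-114048240): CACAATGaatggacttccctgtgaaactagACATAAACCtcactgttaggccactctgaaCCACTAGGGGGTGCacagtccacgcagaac

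Further flanks with a motif are shown for comparison. Ighv2-9 and Ighv7-1 had a peak in the conservative set, Ighv5-17 and Ighv12-3 had one only in the lists before IDR (the authors' filter on repeatability), and Ighv7-3 and Ighv6-5 had none within 1 kb in any list.
Ighv2-9 (chr12:113879006-113879095): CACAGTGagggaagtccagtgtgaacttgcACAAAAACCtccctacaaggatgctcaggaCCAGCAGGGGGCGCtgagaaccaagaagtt
Ighv7-1 (chr12:113896318-113896407): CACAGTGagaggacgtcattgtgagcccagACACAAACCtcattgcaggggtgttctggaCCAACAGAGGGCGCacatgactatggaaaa
Ighv5-17 (chr12:113859059-113859148): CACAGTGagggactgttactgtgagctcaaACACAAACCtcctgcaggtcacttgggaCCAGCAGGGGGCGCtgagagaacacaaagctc
Ighv12-3 (chr12:114366431-114366520): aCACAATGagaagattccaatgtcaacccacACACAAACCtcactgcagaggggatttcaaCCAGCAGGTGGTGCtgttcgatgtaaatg
Ighv7-3 (chr12:114153090-114153179): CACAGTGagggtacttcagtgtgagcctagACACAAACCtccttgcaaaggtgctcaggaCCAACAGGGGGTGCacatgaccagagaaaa
Ighv6-5 (chr12:114416506-114416595): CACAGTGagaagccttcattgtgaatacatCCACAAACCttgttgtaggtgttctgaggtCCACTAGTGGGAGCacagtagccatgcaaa

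The last flanks come from families in which no member segment, pseudogenes left out, had a CTCF core motif past the 3′ end. Ighv1-4 is the most D-proximal Ighv1 segment, Ighv14-1 is the most D-proximal segment of Ighv14, and in Ighv8-2 no recombination signal was found under the same limits.
Ighv1-4 (chr12:114487046-114487135): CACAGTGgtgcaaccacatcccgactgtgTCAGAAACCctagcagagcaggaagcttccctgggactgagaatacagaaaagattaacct
Ighv14-1 (chr12:113931863-113931952): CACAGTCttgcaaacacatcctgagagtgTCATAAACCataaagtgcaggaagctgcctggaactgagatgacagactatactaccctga
Ighv8-2 (chr12:114462201-114462290): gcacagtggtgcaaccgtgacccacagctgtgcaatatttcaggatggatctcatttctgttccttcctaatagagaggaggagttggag

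CTCF peaks were few across the V segments. In the optimal set, 4 of 113 segments (3.54%, interval 1.39 to 8.75%) had a summit within 1 kb. The background was 5.77% of autosome windows as long as the median segment with 1 kb on each side (2443 bp), so the share was near the background. Among annotated genes as short as the Ighv segments the share was 6.06%, among all annotated genes 34.2%, and among protein-coding genes, which are mostly longer, 61.6%. The 4 segments were Ighv5-2, Ighv2-3, Ighv11-1 and Ighv11-2, and all 4 lie within 500 kb of the D-proximal end. The farthest of their summits was 86 bp from its segment, and the next optimal summit outward from the V segments was 27841 bp from its nearest segment, Ighv1-85. None of the 70 Ighv pseudogenes had an optimal summit within 1 kb, where 0 allows up to 4.29%.

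Each of the 4 peaks sat just past the 3′ end of its segment, on the side of the recombination signal. Counted over segments, 4 of 113 (3.54%) had an optimal summit within 150 bp past the 3′ end, against a background of 0.384% of autosome windows of 150 bp. That window was chosen after the positions of these summits had been seen, so the contrast is a description only. The signal value of a peak is a score on the peak caller's own scale, and its rank counts from 1 for the strongest peak of a list. The peak at Ighv11-1 (chr12:113981633-113981952) was the strongest, with a signal of 89.3 and rank 27995 in the optimal set. It ranked 30280 and 25921 among the 300000 peaks of replicates 1 and 2. Its summit lay 86 bp past the segment, at a motif with 1 mismatch. Ighv11-1 and Ighv11-2 make up the whole Ighv11 family.

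The peak at Ighv11-2 (chr12:114048008-114048327) had a signal of 43.5 and rank 42800 in the optimal set, with its summit 73 bp past the segment. It ranked 42215 in replicate 1 and 45610 in replicate 2, and its motif had 1 mismatch. The peak at Ighv2-3 (chr12:113610984-113611303) was nearly as strong, with a signal of 43.6, rank 42772 and a summit 43 bp past the segment. It ranked 42031 in replicate 1 and 46921 in replicate 2, and its motif had no mismatch. Ighv5-2, also called V81X and the first V segment from the D side, had the weakest of the 4 peaks (chr12:113578292-113578611). Its signal was 23.9 and its rank 57728, with the summit 52 bp past the segment at a motif without mismatch. It ranked 61341 in replicate 1 and 69040 in replicate 2.

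The median of the 4 signals, 43.6, was below the median of the optimal set, 73.9, and only Ighv11-1 exceeded that median. The 4 peaks were found in both libraries, and replicate 2 ranked Ighv11-1 higher and the other 3 lower than replicate 1 did. All 4 summits had a CTCF core motif within 50 bp, against a background of 65.4% of optimal peaks, and all 4 motifs were on the strand of the segment. A motif match is a description of the sequence and does not by itself show which bases CTCF touched.

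**Figure D1:**
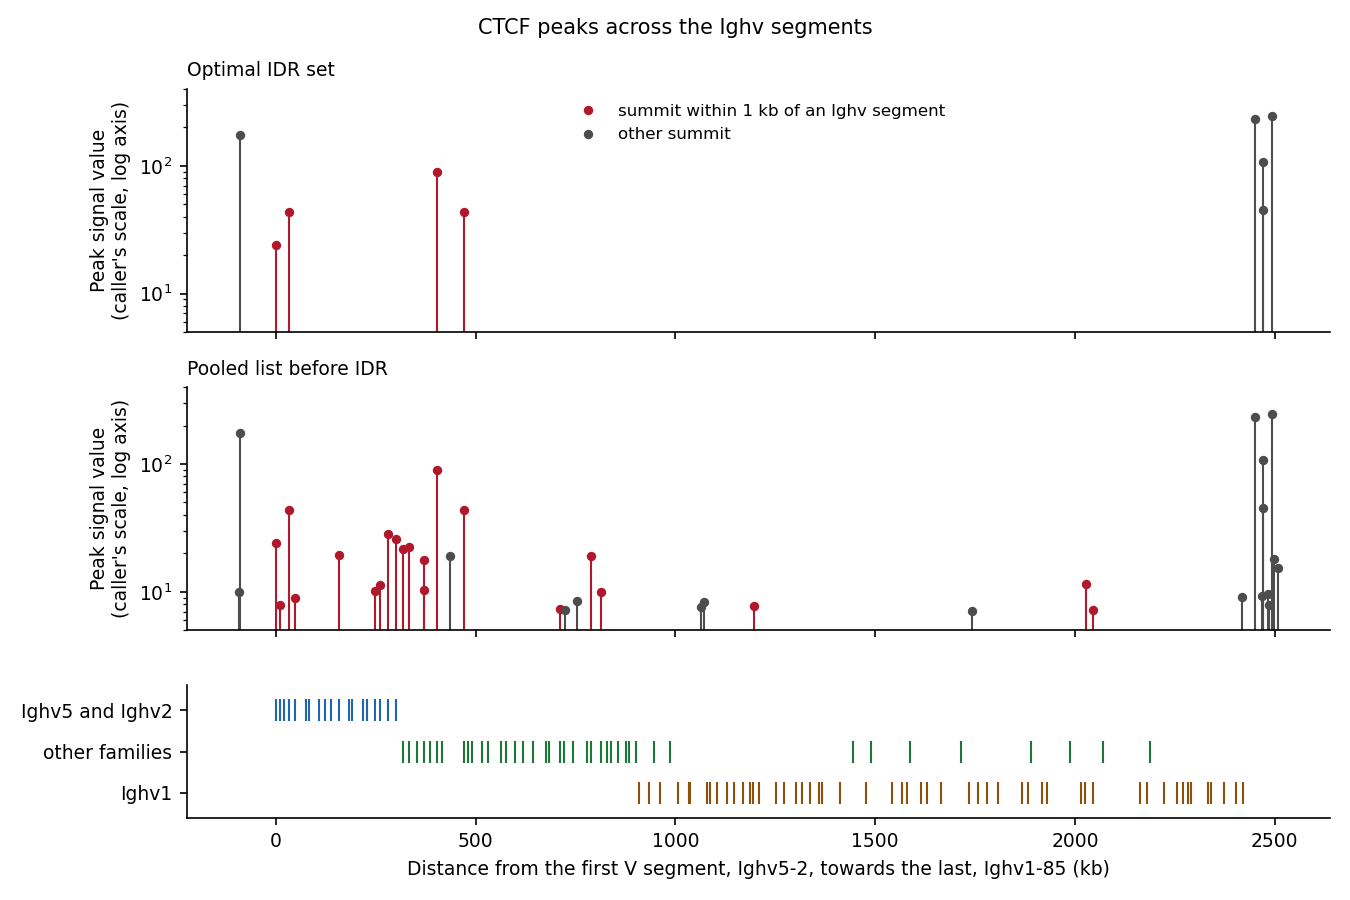
Peak signal value (score on the caller's own scale, log axis) against distance from Ighv5-2 in kb, for the optimal set (top) and the pooled list before IDR (middle), with the V segments by family group below. Red stems are summits within 1 kb of an Ighv segment and grey stems are other summits. In the optimal set the 4 red stems lie within 500 kb of Ighv5-2, and the next summit stands past the last segment.

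The authors' conservative set, although smaller in all with 59979 peaks, held 6 summits within 1 kb of a segment, against a background of 5.55% of windows (6 of 113 segments, 5.31%). It added Ighv2-9, with a signal of 25.7 and a summit 64 bp past the segment, and Ighv7-1, with a signal of 21.6 and a summit 55 bp past it. Ighv2-9 ranked 68542 in replicate 1 and 56853 in replicate 2, and Ighv7-1 ranked 72745 and 63439. The conservative set also held a peak 119 bp past the pseudogene Ighv4-2, with a signal of 18.9, which is no member here. All 6 summits near members were past the 3′ end with a motif on the segment's strand.

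The pooled list before IDR, with 251251 peaks, showed weaker peaks at the same place. The use of that list and of a window of 150 bp past the 3′ end was decided after values had been seen. Within 1 kb, 20 of 113 segments had a pooled summit (17.7%), near the background of 20.1%. Within 150 bp past the 3′ end, 14 of 113 segments had one (12.4%, interval 7.53 to 19.7%), against a background of 1.55% of autosome windows of 150 bp. In replicate 1 alone 16 segments had a summit there (14.2%, background 1.85%), and in replicate 2 alone 13 did (11.5%, background 1.84%). The 14 pooled summits lay 43 to 105 bp past their segment with a median of 66 bp, from Ighv2-3 at the near end to Ighv5-15 at the far end. All 14 had a CTCF core motif within 50 bp on the segment's strand.

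Beside the 6 segments already named, the 14 included Ighv5-17, Ighv7-2, Ighv5-9-1, Ighv12-3, Ighv4-1, Ighv5-16, Ighv5-15 and Ighv6-3. Ighv5-17 had a pooled signal of 28.3, above that of Ighv5-2, but ranked 83687 in replicate 1 and 45356 in replicate 2. Ighv12-3 had a pooled signal of 18.9 and ranked 65424 in replicate 1 and 200453 in replicate 2. Ighv5-9-1 had a pooled signal of 19.2 and ranked 66093 in replicate 1 and 128093 in replicate 2. The remaining pooled signals ran from 9.91 at Ighv6-3 to 22.6 at Ighv7-2. Of the 14 peaks, 12 were found in both single-library lists. The exceptions were Ighv5-16, found in replicate 1 alone at rank 282509, and Ighv5-15, found in neither. Across the 12 peaks Spearman's rho between the ranks in the libraries was 0.39, a description over peaks that share both libraries.

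**Figure D2:**
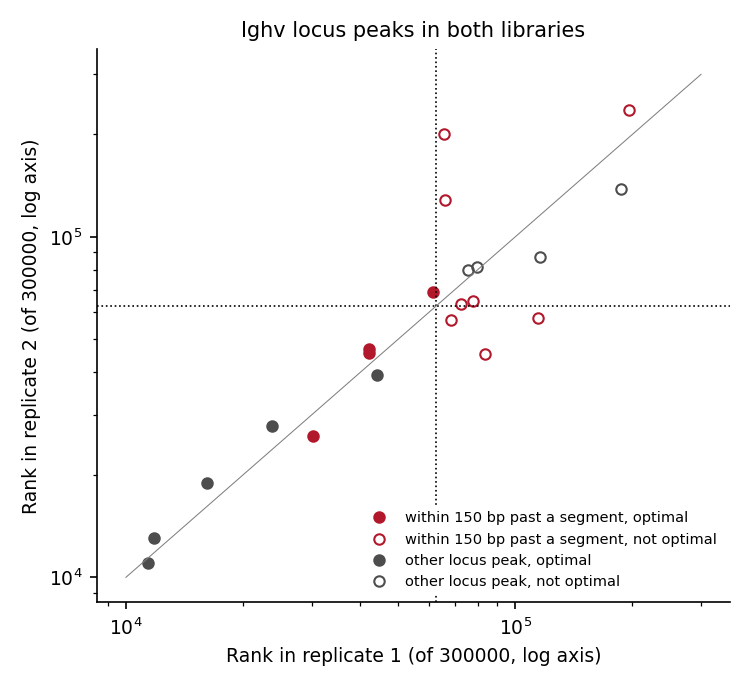
Rank in replicate 2 against rank in replicate 1 (both of 300000, log axes) for the Ighv locus peaks found in both libraries. Red is a summit within 150 bp past a segment, filled symbols are in the optimal set, the grey line marks equal rank and the dotted lines mark rank 62686. The 4 filled red symbols lie near the line, and open red symbols scatter on both sides, with Ighv12-3 at 65424 and 200453.

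The other 7 pooled summits within 1 kb had a lower median signal, although the 2 groups overlapped. Their signals had a median of 7.87 and a maximum of 11.5, against a median of 22.1 for the 14 within 150 bp past the 3′ end. Among the 14, Ighv6-3 had a signal of 9.91 and Ighv5-15 of 10.1. The split at 150 bp was chosen after values had been seen. Only 1 of the 7 was found in both libraries and only 1 had a motif, and both describe the summit 760 bp before the 5′ end of Ighv1-67. That summit ranked 186583 in replicate 1 and 137940 in replicate 2, and its motif had no mismatch and was on the segment's strand. The remaining 6 stood at Ighv2-2, 359 bp past the 3′ end, inside Ighv5-6 and Ighv4-1, and before the 5′ end of Ighv3-6, Ighv1-24 and Ighv1-69.

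**Figure D3:**
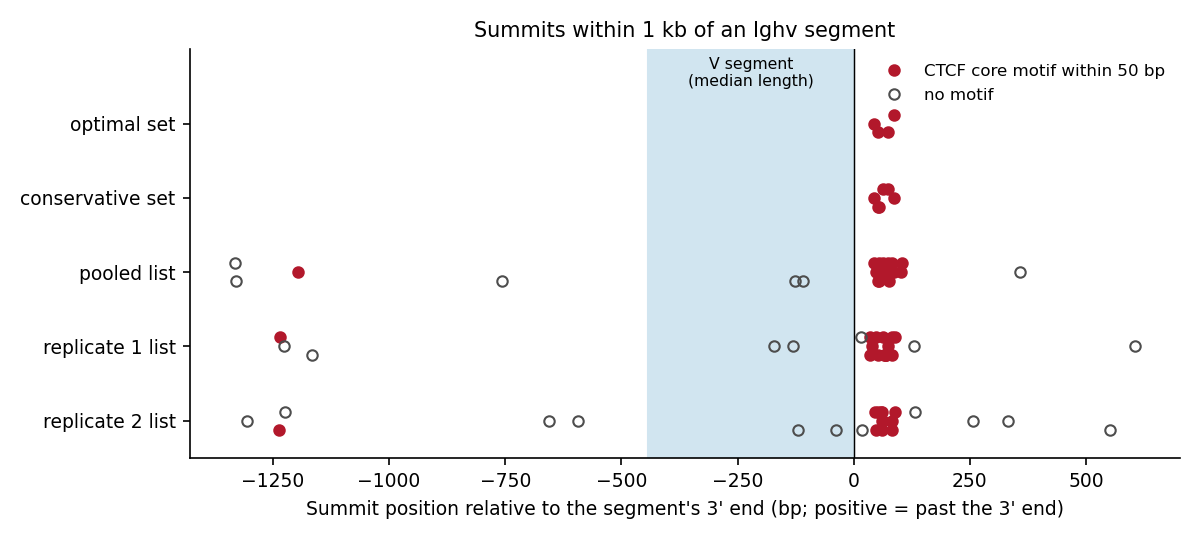
Position of every summit within 1 kb of an Ighv segment relative to the segment's 3′ end (bp, positive past the 3′ end), by peak list. Filled symbols have a CTCF core motif within 50 bp of the summit and the blue band is a segment of median length. In the optimal set all 4 summits lie 43 to 86 bp past the 3′ end, and in the pooled list 14 of 21 lie 43 to 105 bp past it.

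The sequence itself held more CTCF core motifs than there were peaks. In the 300 bp past the 3′ end, 38 of 113 segments had a motif (33.6%, interval 25.6 to 42.8%), against 14.4% of 32815 RefSeq promoters of the same length and 5.73% of chromosome 12 cut into windows of 300 bp. In the 300 bp before the 5′ end, 1 segment had a motif (0.885%). All 38 motifs past the 3′ end were on the segment's strand. They began 13 to 75 bp past the segment with a median of 60 bp, and 32 of 38 began 58 to 60 bp past it, as in most of the flanks printed above. A stretch of 14 bases was identical at 9 segments of Ighv5 and Ighv2, among them Ighv5-2, Ighv2-3, Ighv5-9-1, Ighv5-17 and Ighv2-9, the 5 that had a pooled summit there. Only Ighv5-2 and Ighv2-3 of the 9 were in the optimal set.

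Segments were also compared by how closely their motif matched. Of the 12 segments whose motif had no mismatch, 5 had a pooled summit within 150 bp past the 3′ end and 2 had an optimal one. Of the 17 with 1 mismatch, 9 had a pooled and 2 an optimal summit, and of the 9 with 2 mismatches, such as Ighv7-3, Ighv6-5 and Ighv3-1, none had a summit within 150 bp past the 3′ end in any list. The 75 segments without a motif also had none in that window in any list. In the single-library lists a few summits in that window did not have the whole motif within 50 bp. It was there for 14 of 16 summits in replicate 1 and 11 of 13 in replicate 2. The difference between these classes was not tested, since the segments share sequence and are not replicates.

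The share of sequence found once in the genome moved with the pooled counts, but not in the same direction in every list. Of the 32-base words within 1 kb of a segment, a median of 90.9% occurred once on the assembled chromosomes for the 14 segments with a motif and a pooled summit, and 75.4% for the 24 with a motif and none. Reads that lie wholly in repeated sequence cannot be placed with certainty, but a read longer than a repeated word may be. Read length and the handling of such reads were not given. The part of repeated sequence in the result was not tested. Where at least 90% of the words of the 300 bp flank occurred once, 9 of 21 motif segments had a pooled summit, with 3 of 3 for no mismatch, 6 of 10 for 1 mismatch and 0 of 8 for 2 mismatches. Where less did, 5 of 17 had one. Replicate 1 had a summit at 8 of the 21 and at 8 of the 17, replicate 2 at 7 of the 21 and at 6 of the 17, and the optimal set at 1 of the 21 and at 3 of the 17. Ighv11-1, with the strongest peak, had 55.4% of words found once within 1 kb and Ighv11-2 had 53.6%.

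The motif followed the families. Of 16 families, 11 had a motif past the 3′ end of at least 1 segment, at 38 of their 42 segments, and the other 5 (Ighv1, Ighv8, Ighv9, Ighv14 and Ighv15) had none at 71 segments. The D-proximal Ighv5 family had a motif at 9 of 10 segments, a pooled summit past the 3′ end at 5 and an optimal one at 1. Ighv2 had a motif at 9 of 9 segments, a pooled summit at 2 and an optimal one at 1. For both families together an optimal summit was within 1 kb of 2 of 19 segments (10.5%, interval 2.94 to 31.4%), beside the background of 5.77% given above. Ighv5-4 and Ighv2-2, the most D-proximal members of each without an optimal peak, had a motif with no mismatch but no pooled summit within 150 bp past the 3′ end, and 59.1 and 76.6% of the words of their flanks were found once.

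Among the smaller families, Ighv7 had a motif at 4 of 4 segments and a pooled summit at Ighv7-1 and Ighv7-2. Ighv6 had a motif at 5 of 5 and a pooled summit at Ighv6-3 alone, with a signal of 9.91. Ighv4-1 and Ighv12-3, the only segments of their families, each had both a motif and a pooled summit. Ighv3 had a motif at 3 of 6 segments, Ighv10 at 2 of 2, and the single segments Ighv13-2 and Ighv16-1 also had one, with no pooled summit past the 3′ end at any of them. The flanks of Ighv13-2 and Ighv16-1 were made entirely of words found once (100%), and each motif had 1 mismatch.

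Ighv1 had no motif in the 3′ flank and no optimal summit within 1 kb at any of its 53 segments. For the summits, 0 allows up to 5.66%, close to the background of 5.77% of windows, so this 0 says little about Ighv1. A pooled summit was within 1 kb of 3 of them (5.66%), Ighv1-24, Ighv1-67 and Ighv1-69, below the background of 20.1%. A median of 51.2% of the words within 1 kb of Ighv1 segments was found once, against 81.7% for the 60 segments of other families, and its part in the result was not tested. The printed flank of Ighv1-4 has its heptamer and nonamer in place but nowhere comes within 2 mismatches of the CTCF core motif. Over the 300 bp past its 3′ end the closest match had 4 mismatches. In Ighv8, Ighv9, Ighv14 and Ighv15, Ighv8-2, Ighv9-1, Ighv14-1 and Ighv15-2 stand nearest to the D segments, and their closest matches had 4, 3, 3 and 5 mismatches. For Ighv8-2 and Ighv15-2 the whole flank was found once (100%).

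A recombination signal was found past the 3′ end of 100 of 113 segments under the limits given above. Where heptamer and nonamer were 23 bp apart, 35 of 46 segments also had a CTCF core motif in the 3′ flank and 13 a pooled summit within 150 bp. Where they were 22 bp apart, as in the flanks of Ighv1-4 and Ighv14-1, 0 of 52 had a motif, and these 52 comprised 44 Ighv1 segments and the 4 segments each of Ighv9 and Ighv14. The spacing is that of the closest match to the letters searched and need not be the spacing that RAG uses. No signal was found at 13 segments, among them all 9 of Ighv8, and 2 of the 13 had a motif. Of the Ighv pseudogenes, 8 of 31 outside Ighv1 had a motif (25.8%, interval 13.7 to 43.2%), against 38 of 60 segments outside Ighv1 (63.3%, interval 50.7 to 74.4%). In Ighv1 0 of 39 pseudogenes had one. Pseudogenes had a pooled summit within 150 bp past the 3′ end at 2 of 70 (2.86%, interval 0.787 to 9.83%), Ighv4-2 and Ighv8-1. That interval includes the background of 1.55% of autosome windows of 150 bp. Both had a motif, although no Ighv8 segment counted as a member had one.

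**Figure D4:**
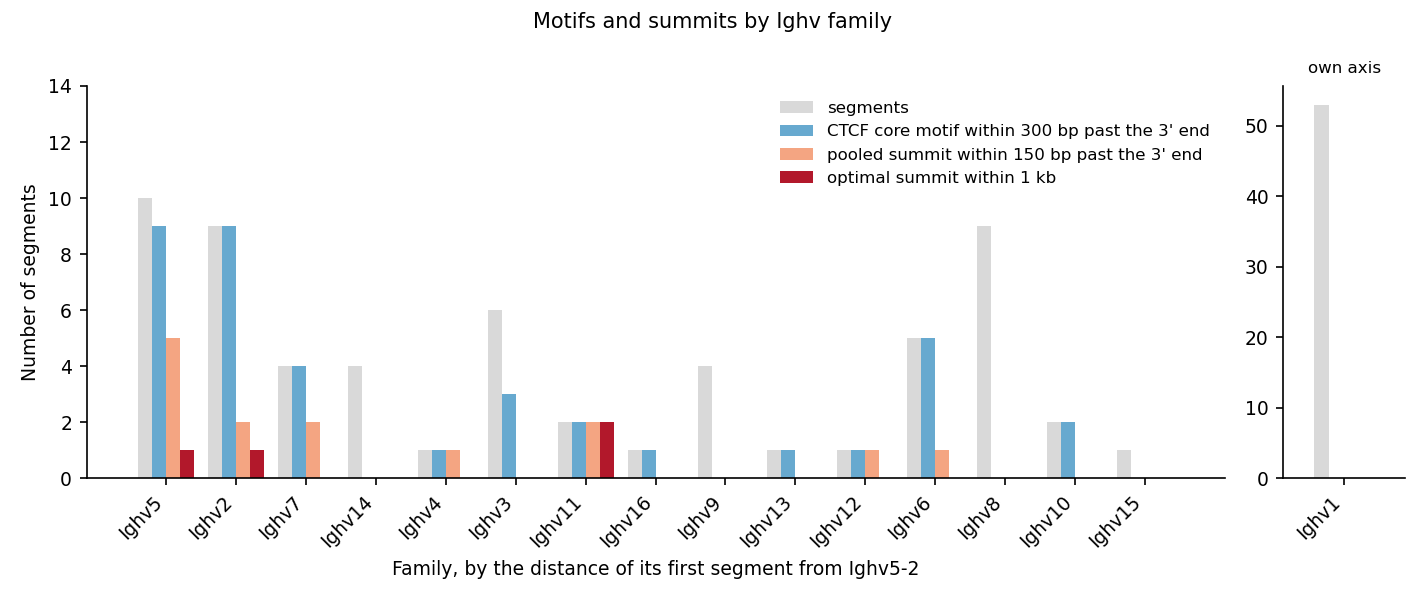
Number of segments in each Ighv family, with the number that have a CTCF core motif within 300 bp past the 3′ end, a pooled summit within 150 bp past it, and an optimal summit within 1 kb. Families run from the D-proximal end to the distal end by their first segment, and Ighv1 has an axis of its own. Optimal summits stand at 1 segment each of Ighv5 and Ighv2 and at both segments of Ighv11, and Ighv1 has 53 segments and no motif.

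Families with and without a motif were interleaved in the first 1 Mb and only families without one lay beyond. In the first 500 kb from Ighv5-2, 25 of 29 segments had a motif past the 3′ end, 12 a pooled summit there and 4 an optimal summit within 1 kb. In the next 500 kb, 13 of 26 had a motif, 2 a pooled summit and 0 an optimal one. Beyond 1 Mb, the 23, 18 and 17 segments of the last 3 intervals had 0 motifs and 0 such summits in either list. Within the first 500 kb, 25 of 26 segments of families with a motif had one, and the 3 segments of other families there, such as Ighv14-1 between Ighv7-2 and Ighv4-1, had none. In the next 500 kb, 13 of 16 segments of families with a motif had one and 0 of 10 of the others did. The families were classed by these same motifs, so the counts of 0 in the other families follow from the definition. They cannot tell family from position. The last motif belonged to Ighv10-3 at 945 kb, and none of the 60 segments beyond it had one. The share of 32-base words found once was 65.3% in the first interval, 75.9% in the second, 63.5% in the third, 45.2% in the fourth and 48.3% in the fifth.

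The distal V segments lie in a long stretch without optimal peaks. From the summit at Ighv11-2 to the first past Ighv1-85, 1.98 Mb held no optimal summit, the third longest of 2511 gaps between neighbouring summits on chromosome 12, where the median was 16.2 kb. It held 87 of the 113 segments, including all 53 of Ighv1, and 12 summits of the pooled list. The locus with its margins had 3.43 optimal peaks per Mb (interval 1.57 to 6.52), against 20.9 on chromosome 12 and 68.3 and 26.7 in neighbouring stretches of equal length at lower and higher coordinates. Of the 32-base words of the locus 60.7% were found once, against 92.7 and 91.0% in those stretches. The kappa light chain V locus, with a similar 59.1%, had 12.2 peaks per Mb (interval 8.79 to 16.6), and the T cell receptor alpha V locus, with 43.4%, had 17.1 (interval 11.6 to 24.5).

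Strong peaks stood on either side of the V segments. The peak at chr12:113487803-113487990, 5698 bp 5′ of the D segment Ighd1-1 and 90614 bp from Ighv5-2, had a signal of 174 and rank 17226 in the optimal set. It ranked 16164 in replicate 1 and 18905 in replicate 2. The annotation places 1 more D segment, Ighd3-1 (chr12:113525313-113525329), between this peak and Ighv5-2. Apart from the summit 52 bp past Ighv5-2, no optimal or pooled summit lay between Ighd3-1 and the V segments. A control element that insulates the D-proximal V segments, IGCR1, is known from this part of the locus, and no annotation used here gives its position. A weak pooled summit 3139 bp from Ighd1-1, with a signal of 9.97, was the only other pooled summit from Ighd1-1 to within 1 kb of Ighv5-2. On the distal side, the strongest peak of the margin (chr12:116071074-116071304) had a signal of 246 and stood 70743 bp past Ighv1-85 and 6522 bp from the start of Vipr2, a receptor for vasoactive intestinal peptide. The nearest one to Ighv1-85, at 27841 bp, had a signal of 232 with its motif on the minus strand, and 2 more stood in Zfp386, a zinc finger gene.

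The motif near the D segments, a match with 2 mismatches, faced the other way from those of the V segments. To show this, the 54 bases around the motif are printed 5′ to 3′ on the plus strand for this peak, for a pair of sites past the last constant gene Igha and for the distal margin peak near Vipr2, with the motif in capitals.
Near Ighd1-1 (chr12:113487868-113487921): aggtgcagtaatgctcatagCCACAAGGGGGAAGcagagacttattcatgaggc
Past Igha (chr12:113220033-113220086): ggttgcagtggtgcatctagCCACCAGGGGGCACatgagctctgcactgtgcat
Past Igha (chr12:113221388-113221441): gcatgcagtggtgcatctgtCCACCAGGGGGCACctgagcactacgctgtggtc
Near Vipr2 (chr12:116071164-116071217): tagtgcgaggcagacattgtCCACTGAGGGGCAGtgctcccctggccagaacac

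The cluster past Igha, in the 3′ region known for its regulatory elements and CTCF sites, lay 30405 to 38706 bp beyond that gene. It held 10 optimal peaks with signals of 50.2 to 452, and a median of 173. Of these, 9 had a motif, and all 9 motifs were on the plus strand, opposite to the 38 motifs past the V segments. The matches ranged from no mismatch, in the printed pair alone, to 2 mismatches. The 3 optimal peaks farther out, within 100 kb of Igha, had their motifs on the minus strand, with signals of 60.3, 444 and 471, so that over the whole stretch 9 of 12 motifs were opposite to the V segments and 3 were not. None of the 17 D, 4 J and 8 constant segments had an optimal or pooled summit within 1 kb. Among autosome windows of 2443 bp the backgrounds were 5.77% in the optimal and 20.1% in the pooled list. Neighbouring D and J segments share much of the sequence searched, so they are not separate counts and their lack of summits says little. The 4 peaks at V segments, with signals of 23.9 to 89.3, were therefore weaker than the peak near Ighd1-1, and 3 of the 4 were weaker than every peak of the cluster past Igha.

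The place of the motif differed between V segments of other antigen receptors, which are given for comparison without a test. Within 1 kb, an optimal summit was found at 1 of 100 kappa light chain (Igkv) segments (1.0%, interval 0.177 to 5.45%), at 11 of 108 T cell receptor alpha (Trav) segments (10.2%, interval 5.78 to 17.3%) and at 3 of 22 T cell receptor beta (Trbv) segments (13.6%, interval 4.75 to 33.3%). The interval for Ighv, 1.39 to 8.75%, overlaps all of these. All 4 Ighv summits were past the 3′ end, whereas 11 of 13 Trav summits were before the 5′ end and 2 inside a segment. The motif lay in the 3′ flank of 33.6% and the 5′ flank of 0.885% of Ighv segments, and in the 3′ flank of 0.926% and the 5′ flank of 58.3% of Trav segments. In Igkv segments it lay in 5.0% of 3′ flanks and 2.0% of 5′ flanks, and in Trbv segments in 9.09% of 3′ flanks and 13.6% of 5′ flanks.

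**Figure D5:**
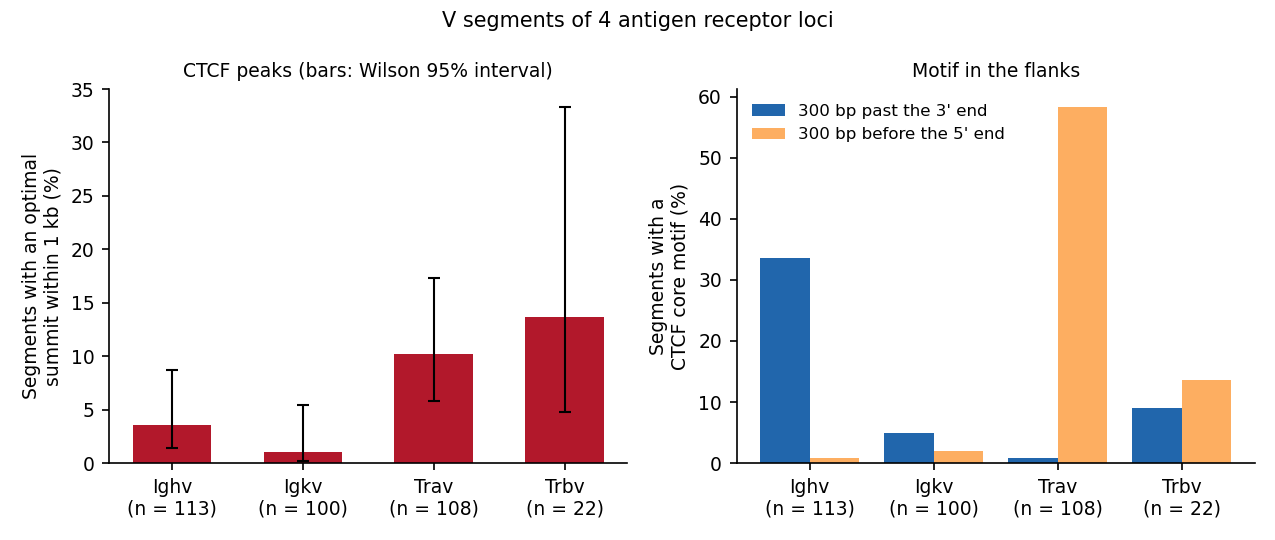
Left, the share of V segments with an optimal summit within 1 kb (%, bars are Wilson 95% intervals) for Ighv, Igkv, Trav and Trbv. Right, the share with a CTCF core motif in the 300 bp past the 3′ end or before the 5′ end (%). Ighv has its motifs past the 3′ end (33.6%) and Trav before the 5′ end (58.3%).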

How the data were processed

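CTCF ChIP-seq peak lists from 2 libraries of 1 group were used, on mm10 per the labels. Each library has its own list, and the pooled list, the conservative IDR set and the optimal IDR set are the authors' deposited lists from both libraries. The deposited signal value is a score without a stated unit. It was used only within each list, to order and describe peaks. Summits came from the deposited summit offset. Aligner, read length, peak caller and IDR threshold were not given in the sources used here, and no control library was analysed. The files hold no read counts, so depth is unknown.

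Segments and strands came from GENCODE vM21, and bases from the RefSeq GRCm38 genome, on chromosomes 1 to 19, X and Y. This left out 9 optimal peaks. Motif, recombination signal and word counts were computed with Python 3.11.15, numpy 2.4.6, pandas 2.3.3, scipy 1.17.1 and numba 0.67.0, and tested on simulated sequences. A motif counted when it lay wholly within 50 bp of the summit. Single-library peaks were matched to others when summits lay within 150 bp.

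The members and lists were chosen with earlier results of these data known. Named segments were those nearest to the 10 strongest peaks within 1 kb, up to 2 per family with the strongest peak and the most D-proximal 1 without any, the first and last segment, and those with the summit nearest to and farthest from the 3′ end. The strongest peak in each margin was also named. Apart from the peak at Ighv5-2, the rule's place for peaks between the D and V segments was empty. This is because Ighd3-1 is annotated nearer to the V segments than the peaks 5′ of Ighd1-1, which were named instead. Features named beyond that were chosen after values were seen. Alternatives covered the peak set, threshold, single libraries, distance, merging of summits, unique sequence, margin, pseudogenes and motif limits.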

Additional observations from a re-analysis of the deposited data

How the results depend on the processing

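With the strongest 50% of the optimal peaks alone, 1 segment (0.885%), Ighv11-1, had a summit within 1 kb, the locus held 5 peaks, and Ighv5 and Ighv2 had 0 of 19 segments (0.0%). In the pooled list the shares were 17.7% of all segments, 12.4% within 150 bp past the 3′ end and 47.4% of Ighv5 and Ighv2. These pooled settings were added after values were seen. Counting only peaks in sequence at least 90% found once left 5 locus peaks, with 1 of them within 1 kb of a segment. For each library alone, cut to as many peaks as the optimal set, the share ran from 3.54 to 5.31% of segments, 10.5 to 15.8% for Ighv5 and Ighv2, and 9 to 11 locus peaks. The share of summits past the 3′ end was 100% under the alternatives to the optimal set and 71.4% in the pooled list. The share with a motif was 100% except 75.0% with a motif window of 25 bp and 71.4% in the pooled list. The share of motifs on the segment's strand was 100% throughout. With the strongest 50% of peaks, and with unique sequence only, the shares for side, motif and strand each rested on 1 peak. Ighv1 was at 0.0% except 5.66% in the pooled list. Of the values under alternatives, 7 moved and 66 did not. A share counted as moved when it left the Wilson interval of its main value. The count of locus peaks counted as moved beyond a set fold change. For shares of the 4 optimal peaks that interval is wide, so 75.0 and 71.4% counted as not moved, and the label says little there. No paired analysis was possible because all samples belong to 1 group. Repeated V sequence and unknown depth limit what an empty segment shows: absence of a peak is not absence of CTCF.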
